A study of Mus musculus with 15 samples.

Results

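Expression of 8 maternal chromatin and reprogramming factors was measured in mouse oocytes grown in vivo or in cultured follicles, with and without neurotrophin-4 (NT-4). The 8 genes, Npm2, Smarca4, Trim28, Ctcf, Pou5f1, Hsf1, Bnc1 and Tcl1, were taken by symbol from the 55401 Ensembl genes counted in every library. All 8 passed the filter on low counts, which left 21009 genes for testing. The growing oocyte stores transcripts and proteins that the egg and early embryo use before the embryonic genome is switched on. Among them are proteins that unpack sperm chromatin and remodel nucleosomes (NPM2, SMARCA4), proteins that set repression and genome folding (TRIM28, CTCF), transcription factors (POU5F1, HSF1, BNC1) and TCL1, a coactivator of AKT kinases. Females that lack several of these gene products, NPM2 and HSF1 among them, ovulate eggs whose embryos fail early in cleavage.

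Each library was made by SMART-Seq2, which copies poly(A) RNA into amplified cDNA, from a pool of 6 oocytes of Kunming mice. In every group 3 libraries were sequenced, 15 in all. IVV oocytes came from follicles that had grown in vivo, in donors whose age is not given for these libraries in the sources used here. The 4 cultured groups came from preantral follicles dissected from mice aged 12 to 14 days and grown in vitro for 6 or 10 days, either without NT-4 (IVG day 6, IVG day 10) or with it (IVG-NT day 6, IVG-NT day 10). The labels give no genetic alteration for any group, and name IVV libraries as replicates 2, 3 and 4 and the others as replicates 1, 2 and 3. The pools came from replicated experiments, but which animals went into which pool is not given in the sources used here, so P-values measure the spread between these libraries. In a pool, fewer cells of a type and less RNA per cell cannot be told apart.

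Depth and rRNA content of the libraries differed in ways that cut across the groups. Total counts were 19.0 to 55.6 M in 13 libraries but 6.0 and 7.1 M in IVG-NT day 6 replicates 1 and 2. In 9 libraries (here rRNA-rich) 12.5% to 37.9% of counts fell on 1 rRNA gene, CT010467.1. These were IVV replicate 3 and replicates 1 and 2 of each cultured group. In the other 6 (rRNA-poor) the share was 0.187% to 0.714%. Oocyte markers were present in all: 14 of 14 had counts in every library, and their summed level in normalised CPM (counts per M counts of the library, scaled by TMM) was 13457 to 23520. The 18 granulosa and cumulus markers summed to 142 to 517 CPM, and 5 to 16 of them had counts in a library. Kitl, Gja1 and Esr2 had counts in every library, reaching 92.7, 93.2 and 165 CPM. At the other end, Amh was at 0 in 13 and Tnfaip6 at 0 in 14 of 15 libraries. The 12 theca and stroma markers summed to 1.56 to 369 CPM, highest in IVG-NT day 6 replicate 2, where only 2 of the 12 had counts. The 9 macrophage and blood markers summed to 0 to 53.1 CPM, highest in IVG-NT day 6 replicate 1, where 2 of the 9 had counts.

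Promoters of 6 of the 8 genes were found among the RefSeq windows of GRCm38.p6, each from 250 bases before to 50 bases after a start site, while Npm2 and Hsf1 were not matched. Shown are windows of the 3 genes whose culture comparisons had the smallest P once the kind of library was allowed for. Of the 2 windows of Pou5f1 only the upstream one is shown. They are written 5′ to 3′ on the gene's strand, and capitals mark the 50 bases from the start site on.
Pou5f1, chr17:35505782-35506081, plus strand: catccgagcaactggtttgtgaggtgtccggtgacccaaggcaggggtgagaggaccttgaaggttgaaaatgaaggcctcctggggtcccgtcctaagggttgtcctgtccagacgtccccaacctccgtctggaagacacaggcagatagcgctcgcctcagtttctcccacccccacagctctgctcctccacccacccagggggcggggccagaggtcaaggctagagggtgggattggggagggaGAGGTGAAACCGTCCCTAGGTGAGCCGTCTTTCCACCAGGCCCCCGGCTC
Bnc1, chr7:81992250-81992549, minus strand: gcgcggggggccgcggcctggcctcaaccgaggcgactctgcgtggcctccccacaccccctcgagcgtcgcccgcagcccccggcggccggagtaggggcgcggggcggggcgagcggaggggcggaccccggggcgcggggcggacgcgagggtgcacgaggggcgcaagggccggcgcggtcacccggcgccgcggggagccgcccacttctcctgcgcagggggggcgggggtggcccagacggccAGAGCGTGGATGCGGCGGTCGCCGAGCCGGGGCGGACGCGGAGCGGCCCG
Tcl1, chr12:105222688-105222987, minus strand: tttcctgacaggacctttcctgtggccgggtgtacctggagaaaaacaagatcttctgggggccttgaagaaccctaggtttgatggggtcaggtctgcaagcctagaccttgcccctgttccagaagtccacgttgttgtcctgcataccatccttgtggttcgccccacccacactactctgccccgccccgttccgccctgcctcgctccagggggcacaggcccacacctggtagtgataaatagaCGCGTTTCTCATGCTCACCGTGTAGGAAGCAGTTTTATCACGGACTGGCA

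The windows differed widely in base composition. The Bnc1 window was 83.3% G or C and held 50 CpG dinucleotides, against a median of 52.7% and 7 CpG over the 32851 windows of 27025 genes. The windows of Ctcf (75.3% G or C, 47 CpG), Smarca4 (72.3%, 33 CpG) and Trim28 (64.0%, 23 CpG) were also above that median. The Tcl1 window had 56.7% G or C and 11 CpG. Pou5f1 had 2 windows, with 62.7% and 45.7% G or C, so only its upstream start site lay in sequence richer in G and C than the median. The octamer ATGCAAAT bound by POU factors, the heat shock element GAANNTTC, the E-box CACGTG and the homeodomain element TAATTA, searched on both strands, were not among the letters of any of the 7 windows. They were present in 1.74%, 7.86%, 7.15% and 5.29% of all windows, respectively.

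Per length, the 8 genes fell into an abundant pair and 6 lower genes. Compared as FPKM, which divide counts by exon length and depth, Tcl1 (median 674, range 342 to 1484 over the 15 libraries) and Npm2 (median 641, range 395 to 1359) had percentiles of at least 99.7 and 99.8 among detected genes in every library. Their order was not fixed, since Tcl1 exceeded Npm2 in 5 of 15 libraries. Bnc1 (41.4, 7.46 to 135) and Trim28 (40.4, 2.82 to 195) came next. Bnc1 was above Trim28 in 8 of the 9 rRNA-rich libraries and in 0 of the 6 rRNA-poor ones. Ctcf (20.9, 15.1 to 69.5) and Pou5f1 (18.7, 8.10 to 77.6) overlapped as well, with Ctcf the higher in 7 libraries. Smarca4 (5.91, 0.447 to 21.8) and Hsf1 (5.69, 1.23 to 15.6) were lowest, and Smarca4 was the higher of the pair in 10 libraries. Pou5f1 was above Smarca4 in 15 of 15 libraries, so only the steps from Npm2 to Bnc1 and from Pou5f1 to Smarca4 held throughout.

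Npm2 encodes nucleoplasmin 2, the histone chaperone that helps exchange protamines for histones on sperm DNA (ENSMUSG00000047911, chromosome 14, 70647302 to 70659244, minus strand, GRCm38). In normalised CPM, which are scaled for depth but not for length, Npm2 was 1259, 630.0 and 1192 in IVV replicates 2, 3 and 4. It was 553, 545 and 1316 in IVG day 10 and 618, 409.6 and 1408 in IVG-NT day 10. At day 6 it was 664, 649.6 and 1284 in IVG and 767, 559 and 1036 in IVG-NT. In all 5 groups the rRNA-poor library or libraries were high and the rRNA-rich ones low, and every group overlapped every other. Group means lay close together, from 787 ± 239 CPM in IVG-NT day 6 to 1027 ± 346 CPM in IVV (SD, n = 3).

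Tcl1 encodes a cofactor that binds AKT and promotes its activation (ENSMUSG00000041359, chromosome 12, 105216750 to 105222793, minus strand). Its levels were 1538, 1012 and 1247 CPM in IVV, 776, 775 and 1339 CPM in IVG day 10, and 1318, 871 and 2670.0 CPM in IVG-NT day 10. The day 6 values were 634, 631 and 1502 CPM in IVG and 1052, 1244 and 2738 CPM in IVG-NT. The rRNA-poor library was again the highest of each cultured group. With libraries of the same kind set side by side, every IVG-NT library was above every IVG library at both days, whereas across kinds the groups overlapped.

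Smarca4, the BRG1 ATPase of BAF complexes (ENSMUSG00000032187, chromosome 9, 21616169 to 21704230), had a lowest level of 2.89 CPM (16 counts) and a highest of 141 CPM, and both extremes were the shallow libraries of IVG-NT day 6. Trim28, the corepressor that KRAB zinc finger proteins bring to DNA (ENSMUSG00000005566, chromosome 7, 12999114 to 13031035), likewise spanned 11.7 CPM (65 counts) to 812 CPM within those libraries. Outside them the ranges were narrower, with Smarca4 at 22.9 to 126 CPM and Trim28 at 93.9 to 341 CPM. Ctcf, the insulator protein that anchors chromatin loops (ENSMUSG00000005698, chromosome 8, 105636568 to 105682922), ranged from 73.3 CPM in IVG-NT day 6 replicate 2 to 338 CPM in IVG day 6 replicate 2. The IVV mean of Ctcf was 108 ± 27.4 CPM and its highest mean 199 ± 124 CPM in IVG day 6, so that IVG day 6 was set apart mostly by replicate 2.

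Pou5f1 encodes OCT4, the POU-domain factor of pluripotent cells and germ line (ENSMUSG00000024406, chromosome 17, 35506018 to 35510772, plus strand). It was 28.2, 72.6 and 23.7 CPM in IVV, 157, 174 and 33.6 CPM in IVG day 10, and 150.0, 150.1 and 37.5 CPM in IVG-NT day 10. At day 6 its values were 87.1, 39.6 and 18.2 CPM in IVG and 42.1, 77.1 and 34.3 CPM in IVG-NT. The 4 rRNA-rich libraries of day 10 were the highest of all 15, and no rRNA-rich library of another group reached them. The rRNA-poor libraries stayed between 18.2 and 37.5 CPM in every group.

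Bnc1 encodes basonuclin 1, a zinc finger factor of germ cells and stratified epithelia (ENSMUSG00000025105, chromosome 7, 81966672 to 81992292, minus strand). Its levels were 45.1, 192 and 46.9 CPM in IVV, 203, 206 and 60.9 CPM in IVG day 10, and 276, 258 and 45.3 CPM in IVG-NT day 10. At day 6 it was 501, 629 and 70.0 CPM in IVG against 134, 331 and 34.6 CPM in IVG-NT. IVG day 6 thus held the highest rRNA-rich values, with group means of 400.0 ± 293 CPM in IVG and 166 ± 151 CPM in IVG-NT. Hsf1, the master factor of the heat shock response and a maternal factor of meiosis (ENSMUSG00000022556, chromosome 15, 76477422 to 76501913), was between 8.76 CPM in an IVV library and 110.4 CPM in an IVG-NT day 10 library. Hsf1 had an IVV mean of 30.7 ± 33.3 CPM, the same as the 30.7 ± 10.2 CPM of IVG-NT day 6, and its highest mean was 78.4 ± 37.7 CPM in IVG-NT day 10.

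**Figure D1:**
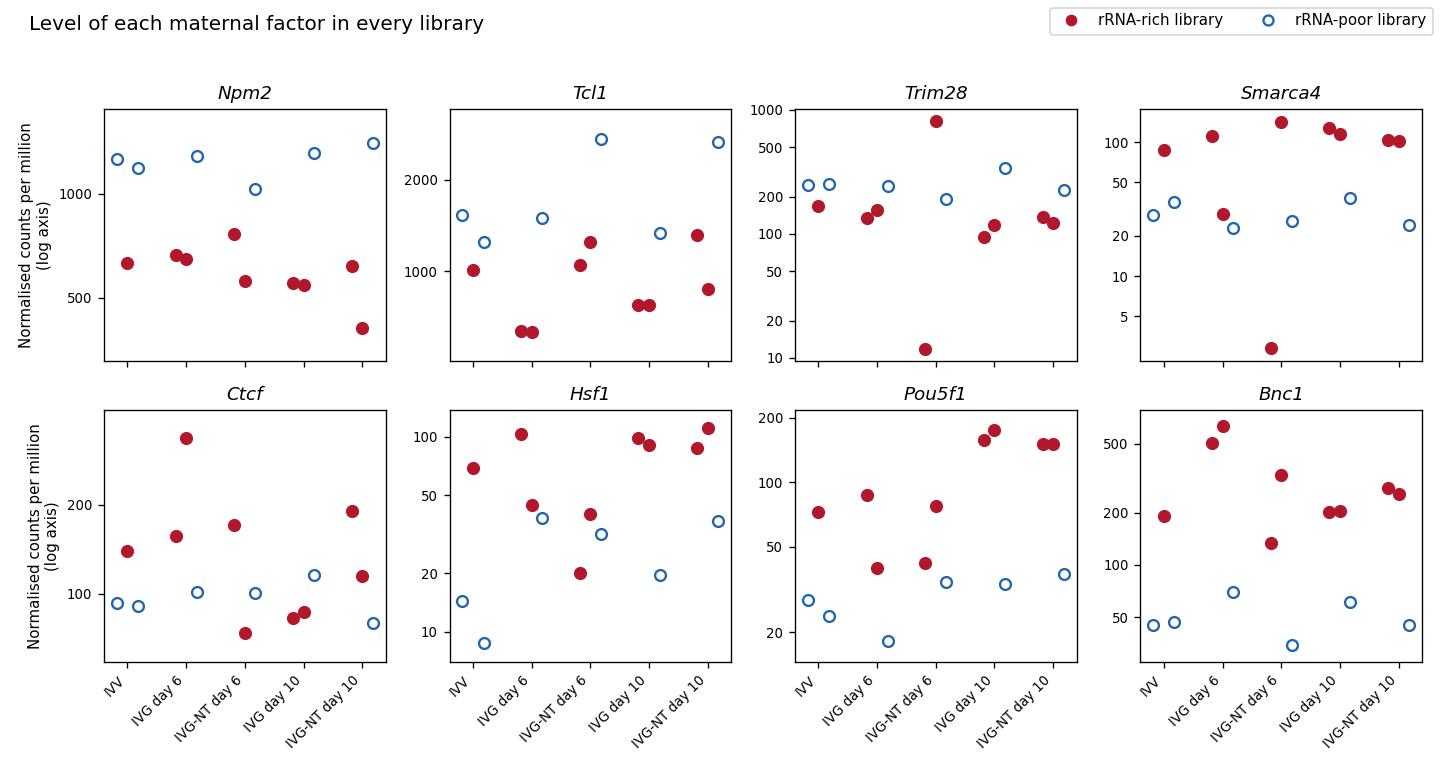
Normalised CPM (log axis) of the 8 genes in each of the 15 libraries, by group; filled points are rRNA-rich libraries, open points rRNA-poor ones. Npm2 and Tcl1 were lower, and Pou5f1 and Bnc1 higher, in the rRNA-rich libraries of all 5 groups.

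Exons of 5 of these genes overlap those of other genes. On the opposite strand, exons of Pou5f1 share 317 bases (14.1% of its exon length) with the antisense gene Gm19553, and those of Ctcf share 370 bases (7.61%) with Gm5914 and 114 bases (2.35%) with Agrp. The opposite-strand overlap of Bnc1 covers 2.11% of its exons. The sources used here do not state whether counting used the strand, so reads from these stretches cannot be told apart. Npm2 and Smarca4 overlap genes of the same strand over 3.76% and 1.53% of their exons. Hsf1 shares 90.2% identity over 336 bases with the pseudogene Gm7076.

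Of the 8 factors, Pou5f1 and Hsf1 had the highest mean levels relative to IVV in oocytes of follicles cultured for 10 days without NT-4, and Tcl1 and Npm2 the lowest, but no difference passed the test. Pou5f1 averaged 122 ± 76.7 CPM in IVG day 10 against 41.5 ± 27.0 CPM in IVV, and Hsf1 70.0 ± 43.8 against 30.7 ± 33.3 CPM (SD, n = 3). A differentially expressed gene (DEG) was called where the log2 fold change passed 1 in size and edgeR's quasi-likelihood test gave P under 0.05 before adjustment, the threshold of the study. Between IVG day 10 and IVV 2.76% of the genes tested were DEGs, none with an adjusted p under 0.05 (579 at an unadjusted P under 0.05), and 0 of the 8 factors were among them. The difference nearest to the threshold was that of Pou5f1, with a log2 fold change of 1.55 (SE 0.86, adjusted p = 1). Hsf1 followed at 1.19 (SE 0.89, adjusted p = 1), and the other 6 lay between -0.39 for Tcl1 and 0.88 for Smarca4. The median over the 8 was 0.27, against -0.20 over all genes. DESeq2 likewise called 0 of 8 factors, here and in the other 4 comparisons. The call depended on single libraries: without IVV replicate 3, the only rRNA-rich IVV library, Hsf1 (log2 fold change 2.55) and Pou5f1 (2.17) were DEGs, and without IVG day 10 replicate 3 Pou5f1 was. The rRNA-rich kind made up 1 of 3 IVV and 2 of 3 IVG libraries, so kinds were also matched. In all 4 same-kind pairs of libraries IVG day 10 was above IVV for Smarca4, Hsf1, Pou5f1 and Bnc1, which is 4 of 8 factors where 33.6% of all genes lay all one way.

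With NT-4 in the culture, Pou5f1 (113 ± 65.0 CPM) and Hsf1 (78.4 ± 37.7 CPM) again had the highest levels relative to IVV, and Trim28 (163 ± 56.5 against 222 ± 47.2 CPM) the lowest, none past the threshold. The IVV libraries are those of the comparison without NT-4, so the comparisons are not independent. Between IVG-NT day 10 and IVV 3.29% of genes were DEGs (691, none at an adjusted p under 0.05) and again 0 of 8 factors. Pou5f1 had a log2 fold change of 1.44 (SE 0.85, adjusted p = 1), Hsf1 of 1.35 (SE 0.89, adjusted p = 1) and Bnc1 of 1.03 (SE 0.97, adjusted p = 1). The remaining 5 ranged from -0.45 for Trim28 to 0.59 for Smarca4, and the median over the 8 was 0.48, against -0.19 over all genes. Hsf1 was a DEG (2.70) without IVV replicate 3. Over the 4 same-kind pairs, Hsf1 and Pou5f1 were higher and Trim28 lower in IVG-NT in each, 3 of 8 factors against 33.7% of all genes.

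Set against culture of the same length without it, NT-4 went with a higher mean of Tcl1 at day 10 (1619.7 ± 937 against 963 ± 326 CPM) and at day 6 (1678 ± 923 against 923 ± 502 CPM), and with lower means of Bnc1 and Hsf1 at day 6, differences within the spread of the libraries. At day 10, 1.24% of genes were DEGs between IVG-NT and IVG (261, none at an adjusted p under 0.05) and 0 of 8 factors. With the replicate number as a block, 127 genes and again 0 of 8 factors were called. Same-numbered libraries deviated together at day 10, but they were also of the same kind, so pairing cannot be told from kind. Tcl1 showed the widest difference, with a log2 fold change of 0.75 (SE 0.59, adjusted p = 1), and the other 7 factors lay between -0.29 for Smarca4 and 0.43 for Ctcf. Tcl1 was higher and Smarca4 lower in IVG-NT in 5 of 5 same-kind pairs, a share of 2 in 8 where 15% of all genes lay all one way. At day 6, 11.6% of genes were DEGs (2430, none at an adjusted p under 0.05) and still 0 of 8 factors. Bnc1 had a log2 fold change of -1.27 (SE 0.98, adjusted p = 0.626) and Hsf1 of -1.02 (SE 0.89, adjusted p = 0.688), while Trim28 was at 0.93 (SE 0.94, adjusted p = 0.753) and Tcl1 at 0.86 (SE 0.59, adjusted p = 0.567). Tcl1 was higher, and Hsf1 and Bnc1 lower, in all 5 same-kind pairs at day 6, against 19.3% of all genes. At day 6 with NT-4, theca and stroma markers were called in both directions (2 higher and 1 lower of 10 tested), 2 of 7 macrophage and blood markers were called higher and 2 of 15 granulosa markers lower, and their part in these values was not tested. The shallow libraries belong to IVG-NT day 6. Without them, 1 library remained, and Bnc1 was then a DEG at -3.42 (adjusted p = 0.928), a comparison of an rRNA-poor library with a group of both kinds.

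From day 6 to day 10 the mean of Pou5f1 went from 48.3 ± 35.2 to 122 ± 76.7 CPM without NT-4 and from 51.2 ± 22.8 to 113 ± 65.0 CPM with it, while the means of Npm2 and Tcl1 differed by less than the spread of the libraries. Over both cultures, 10.4% of genes were DEGs (2178, none at an adjusted p under 0.05) and 0 of 8 factors. Pou5f1 came closest, 1.23 higher at day 10 on the log2 scale (SE 0.60, adjusted p = 0.491). It was higher at day 10 in 19 of 20 same-kind pairs, and none of the 8 factors lay one way in all 20, as 2.67% of genes did. Hsf1 (0.76, SE 0.62, adjusted p = 0.770) and Smarca4 (0.60) had values above 0, Bnc1 (-0.57, SE 0.68, adjusted p = 0.901), Trim28 (-0.50) and Ctcf (-0.45) below, and Tcl1 (0.01) and Npm2 (-0.03) were level. Pou5f1 became a DEG when IVG day 10 replicate 3, IVG-NT day 10 replicate 3, IVG day 6 replicate 1 or IVG-NT day 6 replicate 2 was left out, and with the last of these Smarca4 did as well (1.53). Of the granulosa markers 4 of 15 tested were called higher at day 10, with sums of 142 to 517 CPM against 147 to 238 CPM at day 6, and of the macrophage and blood markers 3 of 7. Of 10 theca and stroma markers 2 were called higher and 1 lower. The part of these cells in the levels of the 8 factors was not tested. The change of the NT-4 effect between days was tested as an interaction, which called 6.37% of genes and 0 of 8 factors.

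**Figure D2:**
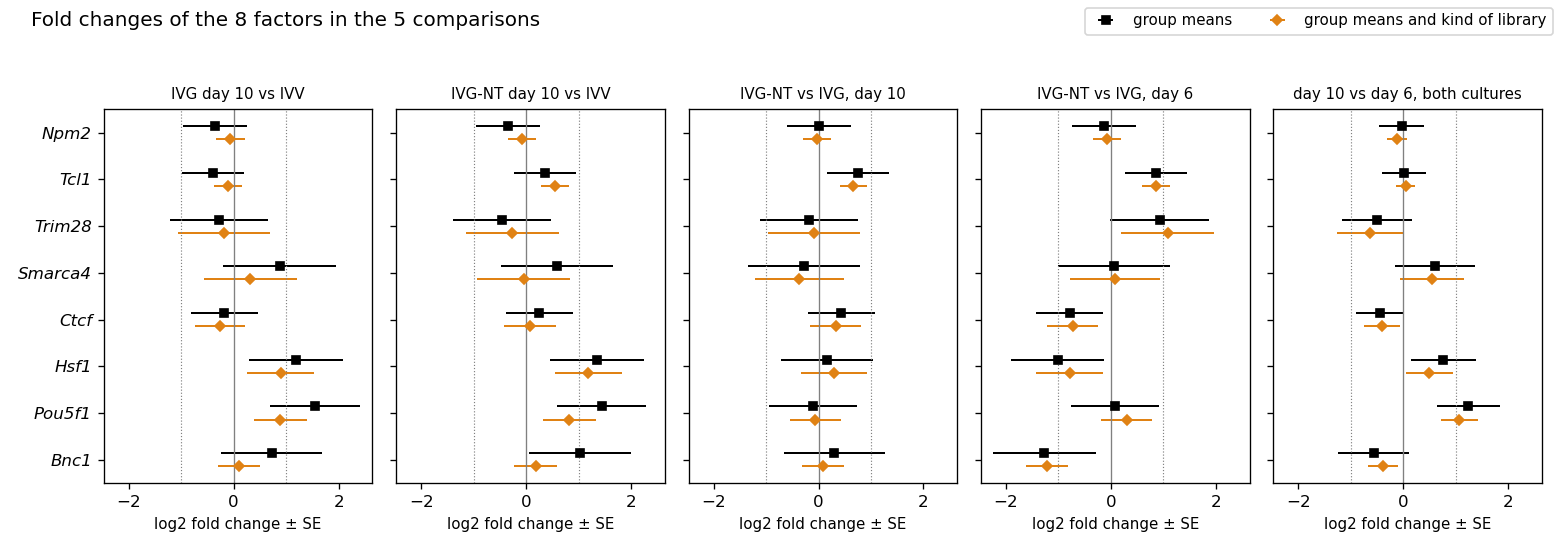
Log2 fold changes of the 8 genes in the 5 comparisons, with bars of 1 SE; black squares are from group means alone, orange diamonds with the kind of library in the fit, and dotted lines mark 1 and -1. Most bars of the black squares cross 0, and those of the diamonds are shorter.

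Most of the 8 factors differed between the kinds of library. With group in the fit, 6 of 8 were called between rRNA-rich and rRNA-poor libraries, against 35.1% of all genes. Their median log2 fold change was 0.95, that of all genes -0.54. Bnc1 was 5.30-fold higher in rRNA-rich libraries (log2 2.41, SE 0.30, adjusted p = 7.98e-05), with means of 303 ± 162 CPM (SD, n = 9) against 50.5 ± 12.7 CPM (n = 6). Pou5f1 was 3.14-fold higher (adjusted p = 0.00425), from 29.2 ± 7.29 CPM in the rRNA-poor to 106 ± 52.4 CPM in the rRNA-rich libraries. Smarca4 (3.15-fold, adjusted p = 0.0631) and Hsf1 (2.64-fold, adjusted p = 0.0318) were higher too. Both abundant genes went the other way, Npm2 by 2.09-fold (599 ± 99.2 against 1249 ± 126 CPM, adjusted p = 0.000766) and Tcl1 by 2.01-fold (adjusted p = 0.000882). Ctcf (0.49, adjusted p = 0.307) and Trim28 (-0.64, adjusted p = 0.471) were not called.

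Within groups the division recurred without overlap in all 5 for Bnc1, Pou5f1, Npm2 and Tcl1, but not for Smarca4 or Hsf1. In 5 of 5 groups Bnc1 was higher in the rRNA-rich libraries with no overlap, by 3.35 to 8.07 times, and Pou5f1 by 1.74 to 4.93 times. Npm2 was higher in the rRNA-poor libraries by 1.56 to 2.74 times and Tcl1 by 1.38 to 2.44 times, again without overlap in any group. The mean of Smarca4 was higher in rRNA-rich libraries in 5 groups, with overlap in 1. In that group, IVG-NT day 6, its rRNA-rich libraries were at 2.89 and 141 CPM and the rRNA-poor one at 25.9 CPM. Hsf1 was higher in rRNA-rich libraries in 4 groups without overlap, and in IVG-NT day 6 it averaged 30.2 CPM in the rRNA-rich libraries and 31.7 CPM in the rRNA-poor one, with overlap. Leaving out IVV replicate 3, which has no rRNA-rich partner in its group, left 5 factors called, with Hsf1 at 0.99 and past neither the fold nor the P threshold. The share of all genes was counted neither for that fit nor for overlap within groups. These counts therefore do not set the factors apart from other genes. Marker sums of granulosa cells overlapped between kinds, at 147 to 517 CPM in rRNA-rich and 142 to 292 CPM in rRNA-poor libraries, and 0 of 15 tested granulosa markers were called. Theca and stroma markers (4 of 10 tested) and macrophage and blood markers (5 of 7) were called lower in rRNA-rich libraries, beside 35.1% of all genes called. Their sums overlapped between kinds and had their maxima in rRNA-rich libraries. Theca and stroma markers summed to 1.56 to 369 CPM in rRNA-rich and 3.32 to 37.3 CPM in rRNA-poor libraries. Macrophage and blood markers summed to 0 to 53.1 CPM and 1.56 to 39.1 CPM, respectively. The part of these cells in the division of the 8 factors was not tested.

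**Figure D3:**
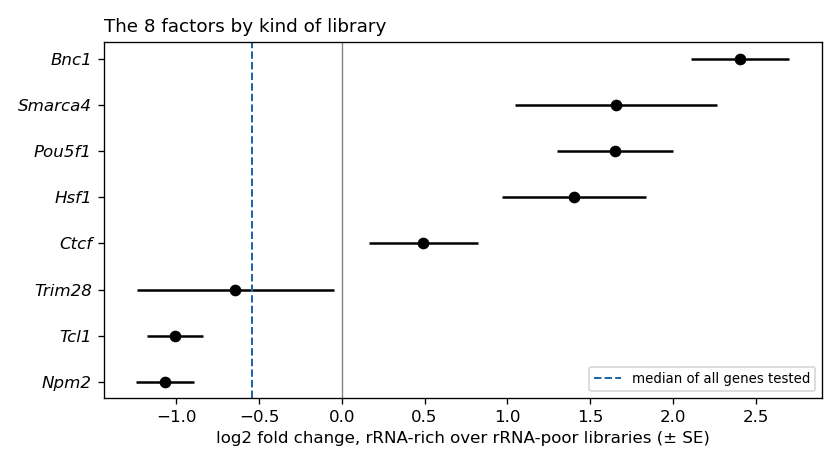
Log2 fold change between rRNA-rich and rRNA-poor libraries for the 8 genes, with bars of 1 SE; the dashed line is the median of all genes tested (-0.54). Bnc1, Smarca4, Pou5f1 and Hsf1 lie above 1 and Npm2 and Tcl1 below -1.

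With the kind of library in the fit, standard errors shrank and culture differences of 3 factors had an unadjusted P under 0.05, but none had an adjusted p under 0.05. At day 6, the estimate for Bnc1 was 2.32-fold lower in IVG-NT than in IVG (log2 fold change -1.21, SE 0.40, adjusted p = 0.260). In this fit 15.8% of genes were DEGs at day 6, so 1 of 8 factors was no more than that background. The call was lost without IVG-NT day 6 replicate 1 (-0.93) or IVG day 6 replicate 2 (-0.99), and the log2 fold change was -1.47 without both shallow libraries (adjusted p = 0.392). The estimate for Pou5f1 was 2.09-fold higher at day 10 than at day 6 (log2 1.06, SE 0.35, adjusted p = 0.233), 1 of 8 factors where 13.6% of genes were called. Its log2 fold change was 0.87 to 1.27 with single libraries left out and 0.69 (adjusted p = 0.474) without both shallow ones, below the fold threshold. The call was lost without IVG day 10 replicate 2, IVG-NT day 6 replicate 1 or IVG day 6 replicate 2. Without IVG-NT day 6 replicate 3, Pou5f1 had an adjusted p of 0.0164. That fit left only the shallow libraries in IVG-NT day 6, and the share of all genes passing was not counted for it. The value therefore does not set Pou5f1 apart from other genes.

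Tcl1 was the only factor with P under 0.05 for NT-4 at both days in this fit, and at neither did it reach the fold threshold. Of the 21009 genes tested, 3378 at day 6 and 431 at day 10 had P under 0.05. The genes with P under 0.05 at both days were not counted. It was 1.82-fold higher in IVG-NT at day 6 (log2 0.86, SE 0.26, adjusted p = 0.260) and 1.59-fold higher at day 10 (log2 0.67, SE 0.26, adjusted p = 1). With single libraries left out, the log2 fold change was 0.75 to 0.99 at day 6 and 0.55 to 0.85 at day 10. At day 10 the unadjusted P was above 0.05 without IVG day 10 replicate 3, IVG-NT day 10 replicate 1 or IVG-NT day 10 replicate 3. Without both shallow libraries it was 1.09 at day 6 (adjusted p = 0.448). Against IVV, Tcl1 in IVG-NT day 10 was 0.55 higher on the log2 scale (SE 0.26, adjusted p = 1). In the comparisons with IVV and between cultures at day 10, 3.83%, 4.31% and 2.03% of genes were DEGs in this fit and 0 of 8 factors. The change of the NT-4 effect from day 6 to day 10 called 8.96% of genes, among them Bnc1 at 1.29 (SE 0.56, adjusted p = 0.534).

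**Figure D4:**
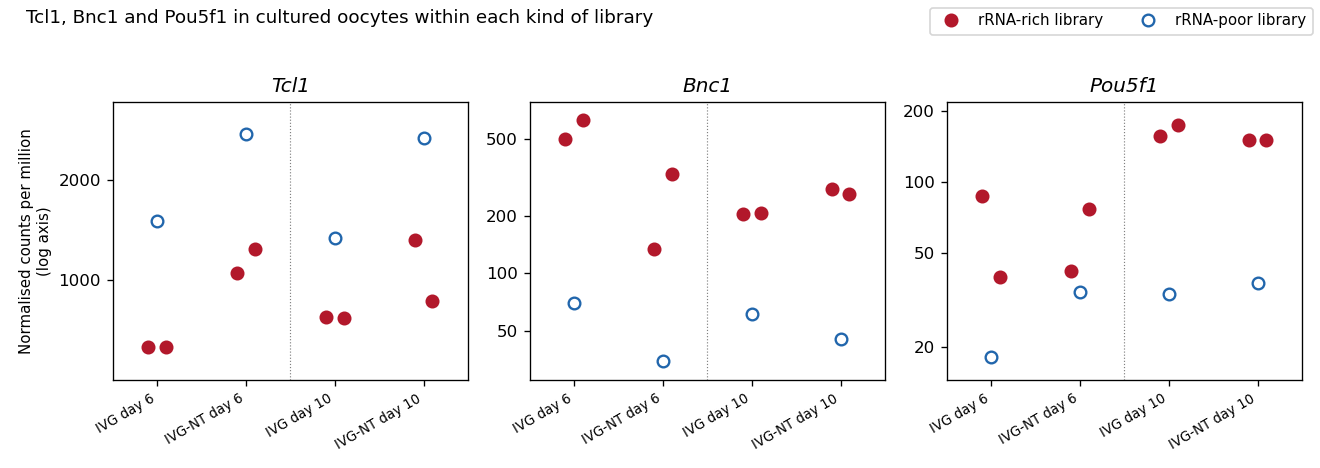
Normalised CPM of Tcl1, Bnc1 and Pou5f1 in the 12 libraries of cultured follicles, split by kind of library. Within a kind, all IVG-NT values of Tcl1 lie above the IVG values of the same day, all IVG-NT values of Bnc1 at day 6 lie below those of IVG, and Pou5f1 at day 10 exceeds day 6 in all but 1 pair.

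The genes whose pattern over the 15 libraries was closest to each factor were found by the root mean square difference of centred log2 CPM among 12380 candidates. For Npm2 these were Gid4 (0.23), Syf2 (0.25) and Sfr1 (0.27), and for Tcl1 Bub3 (0.31), Psmd8 (0.35) and H1foo (0.36), the oocyte linker histone. Bnc1 was closest to Cep164 (0.35), Mettl14 (0.37) and Pls1 (0.40), and Pou5f1 to Cdk12 (0.34), Ewsr1 (0.36) and Arhgap21 (0.39). For Hsf1 the nearest were Rab1b (0.44), Ice1 (0.45) and Dicer1 (0.47), for Smarca4 Itch (0.43), Trim75 (0.48) and Gda (0.51), for Ctcf Abhd17b (0.31), Ube2h (0.37) and Sypl (0.38), and for Trim28 Ubxn2a (0.34), Scn8a (0.35) and Aktip (0.44). These distances stand beside SDs of the factors themselves of 0.58 for Npm2 to 1.49 for Smarca4. Among the 8, the closest were Npm2 with Tcl1 (0.47) and Hsf1 with Pou5f1 (0.63). The 15 libraries share groups and kinds, which enter every such distance.

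Partners of the 8 factors were read from 7 lists, and in none of the 5 comparisons did a gene of them have an adjusted p under 0.05. Calls among them stand beside 2.76% (IVG) and 3.29% (IVG-NT) of all genes against IVV. For NT-4 the shares of all genes were 1.24% at day 10 and 11.6% at day 6, and between days 10.4%. Of the TRIM28 complex and its KRAB zinc finger partners, 14 of 15 were tested. Zfp57, the zinc finger protein that guards imprinted methylation, was called higher in both day 10 cultures against the same IVV libraries. Its log2 fold change was 3.14 in IVG day 10 (adjusted p = 1) and 3.56 in IVG-NT day 10 (adjusted p = 1). Means were 88.6 ± 81.1 CPM in IVV and 779.9 ± 470.4 and 1048 ± 838 CPM in these cultures. The ranges of IVV (29.6 to 181 CPM) and IVG-NT day 10 (80.2 to 1541 CPM) overlapped. Zfp57 was also higher in rRNA-rich libraries (2.98, adjusted p = 0.00237). Uhrf1, which recruits DNMT1 to hemimethylated DNA, was 2.84 lower with NT-4 at day 6 on the log2 scale (adjusted p = 0.381), at 91.4 ± 68.1 against 655 ± 299 CPM. Zfp809, a silencer of retroviruses, was also called lower there, from low levels of 2.40 to 9.94 CPM in IVG and 0 to 1.53 CPM in IVG-NT. Uhrf1 (1.48, adjusted p = 0.337) and the HP1 gene Cbx5 (1.31, adjusted p = 0.391) were called higher at day 10 than at day 6. The median log2 fold change of this list between IVG day 10 and IVV was 0.79, against -0.20 over all genes.

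Of 13 tested partners of CTCF, Zfp143 was called higher in IVG day 10 against IVV (2.49, adjusted p = 1), at 64.6 ± 37.8 against 11.5 ± 2.04 CPM. The cohesin gene Rad21 (-1.89, adjusted p = 0.406) and the cohesin regulator Pds5a (-3.11, adjusted p = 0.381) were called lower with NT-4 at day 6. That was 2 of 13 partners, beside 11.6% of all genes. Ctcf itself was at -0.79 there (SE 0.64, adjusted p = 0.656). Maz, below 2 CPM in every library, was the only one called between days. The median of the CTCF list was 0.43 between IVG day 10 and IVV and -0.14 for NT-4 at day 6, where that of all genes was -0.27. Among 37 remodelling genes around Smarca4, Srcap was called higher in IVG day 10 against IVV (4.31, adjusted p = 1). Its ranges overlapped, at 2.59 to 512 CPM in IVG day 10 and 1.55 to 42.7 CPM in IVV. Chd9 was called lower with NT-4 at day 6 (-1.38, adjusted p = 0.395), and the BAF subunit gene Arid1a higher at day 10 than at day 6 (2.44, adjusted p = 0.337). The list's medians were 0.08 and -0.28 in these comparisons with IVV and at day 6. Smarcd3 was called higher with NT-4 at day 6, at 0 in all IVG libraries and 0.505 to 5.60 CPM in IVG-NT.

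In the TCL1 family list, 10 of 10 genes were tested, with a median of -0.58 in IVG day 10 against IVV and for NT-4 at day 6. Counts of Tcl1b5 are uncertain because close paralogues can share its reads. Tcl1b5 was called lower with NT-4 at day 6 (-2.05, adjusted p = 0.407) and higher at day 10 than at day 6 (1.77, adjusted p = 0.346). Tcl1 was at 0.86 and 0.01 in these comparisons. Of 18 tested partners of POU5F1, Tbpl2, the oocyte TBP paralogue, was called lower at day 10 than at day 6 (-2.34, adjusted p = 0.337). Klf5 and Zscan4c were called lower in IVG-NT day 10 against IVV from levels of at most 2.36 and 5.40 CPM. Klf5, at 0 in all IVG-NT day 10 libraries, was also called against IVG day 10. Of 15 heat shock genes tested beside Hsf1 only Bag3, at 9.68 CPM or less, was called, with NT-4 at day 6. No histone chaperone or variant gene was called in the 5 comparisons (0 of 22), and the smallest P were those of Atrx (1.44, adjusted p = 1) and Ssrp1 (1.37, adjusted p = 1), both in IVG-NT day 10 against IVV. The medians of the histone chaperone, POU5F1 and heat shock lists between IVG day 10 and IVV were 0.16, 0.04 and -0.49.

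Partner genes were called between the kinds of library in both directions, beside 35.1% of all genes (2578 higher and 4798 lower of 21009). Of the 22 histone chaperone genes 6 were higher and 6 lower in rRNA-rich libraries, with H3f3b (-1.69, adjusted p = 0.000848) and Asf1a (-2.59, adjusted p = 0.00324) lower beside Npm2, and Cabin1 (1.57) and Atrx (1.21) higher. The TCL1 list of 10 had 1 higher and 6 lower, and Tcl1b2 (-2.09), Tcl1b3 (-1.48) and Tcl1b4 (-1.15) were lower beside Tcl1. The 37 remodellers had 7 higher and 2 lower, a share below that of all genes, with Mta1 (3.51) and Chd4 (1.55) higher beside Smarca4. The TRIM28 list of 14 had 4 higher, led by Setdb1 (2.06) and Atf7ip (2.20), and 1 lower, and the CTCF list of 13 had 4 higher, led by Stag1 (1.69) and Nipbl (1.15), and 0 lower. The POU5F1 list of 18 split 5 to 5, with Lin28a (5.68, adjusted p = 2.89e-07) higher like Pou5f1 and Dppa3 (-3.44, adjusted p = 4.8e-07) lower. Medians were -1.27 for the TCL1 list and 0.73 for the CTCF list, with -0.54 over all genes. Of 15 heat shock genes 2 were higher and 3 lower, a share near that of all genes, with Hspe1 (-2.58) lower while Hsf1 was higher.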

How the data were processed

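SMART-Seq2 libraries of 6 oocytes were sequenced as read pairs. Per the labels and the study's methods, the authors aligned reads to mm10 with HISAT2 and deposited, library by library, raw counts of Ensembl genes that were not normalized. The counting program and its strand setting are not given in the sources used here. FastQC and edgeR are named in the submitters' processing notes without versions. Groups and replicate numbers came from sample titles; the deposited tables of the IVV libraries carry other numbers than the titles, so the block values against IVV hold for the titles' numbers only. Of 55401 identifiers, 99.5% had a symbol in GENCODE vM21. Total counts were 6.0 to 55.6 M per library. PCR copies carry no molecular identifiers, so counting error is a lower limit of the error. Replicates differed by a chi-square per gene of 48.4 to 1605, so none repeats another.

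Counts were filtered with filterByExpr (minimum count 10), scaled by TMM and fitted over all 15 libraries with edgeR 4.0.16 (R 4.3.3, limma 3.58.1) by the quasi-likelihood method, which pools the spread over groups, with Benjamini-Hochberg adjustment over 21009 genes. A second fit added the kind of library (rRNA gene above or under 5% of counts). FPKM used the union of exons. Alternatives were DESeq2 1.42.0, its size factors, no filter, a replicate block, the kind of library and single libraries left out. Same-numbered IVG and IVG-NT libraries had correlations of deviations of 0.37, 0.41 and 0.73 at day 10 (all over 0.1) and 0.08, 0.11 and 0.33 at day 6. In the cultured groups the same number also marks the same kind of library, so these values cannot tell pairing from kind. Between IVV and the day 10 groups, where same numbers mark different kinds, they were -0.28 to -0.52. Named are the 8 factors and, from each list, up to 4 called genes per comparison with the smallest P, or the 2 smallest P where none was called in the 5 comparisons. The kind of library was added to the naming in the same way, and genes near 0 CPM are given by level, without a fold. A gene called by this rule is not reported here. Members and lists were chosen with earlier results of these data known.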

Additional observations from a re-analysis of the deposited data

Results flagged for a closer look

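The change of the NT-4 effect on Bnc1 between days was called only before adjustment, in the edgeR fit with the kind of library. That fit called 8.96% of all genes and 1 of 8 factors for this change, so a difference between days was not established. In it, the log2 fold change of IVG-NT against IVG was 1.29 higher at day 10 than at day 6 (SE 0.56, adjusted p = 0.534). It was 0.99 to 1.76 with single libraries left out, and P was above 0.05 in 8 of those 12 fits. Without the kind of library it was 1.57 (SE 1.37, adjusted p = 0.981). Bnc1 was lower with NT-4 in 5 of 5 same-kind pairs of libraries at day 6.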

How the results depend on the processing

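With every alternative the smallest adjusted p of the 8 factors over the 5 comparisons was 0.233 (kind of library in the fit) or more. The exception was a setting chosen after seeing the data, single libraries left out with that kind in the fit. There it was 0.0164 for Pou5f1 between days, and 0.0791 for Tcl1 and 0.0954 for Bnc1 at day 6. Each of these was without IVG-NT day 6 replicate 3, and the adjusted p was 0.158 or more otherwise. Without that replicate only shallow libraries stayed in IVG-NT day 6, and the share of all genes passing was not counted. DESeq2 size factors, in edgeR or in the DESeq2 Wald test, moved the median of all genes by -0.19 (IVG against IVV), -0.17 (IVG-NT against IVV), 0.27 (NT-4, day 6), -0.19 (days) and -0.17 (kind of library); DEGs higher changed from 58.3% to 73.3% at day 6 and from 52.4% to 38.9% between days, Npm2 at day 6 became 0.25 and Tcl1 between days -0.18. DESeq2 called 153 genes for NT-4 at day 10. Without a filter 1637, 1580 and 4022 genes were called in both IVV comparisons and at day 6, with Npm2 at day 10 at -0.0082 and Tcl1 between days at -0.0115. With the replicate block, 127, 1138 and 1313 genes were called for NT-4 at days 10 and 6 and between days, and Npm2 was -0.0173 at day 10. The block turned Smarca4 (-0.12), Bnc1 (-0.88) and Trim28 (0.21) in IVG against IVV, and Smarca4 (-0.46), Bnc1 (-0.74), Ctcf (-0.049) and Trim28 (0.21) in IVG-NT against IVV, where numbers mark different kinds of library; it changed no other direction and no call of the 8. With the kind of library, 427 genes were called at day 10, 1 factor (Bnc1) at day 6 and 1 (Pou5f1) between days; Smarca4 in IVG-NT against IVV was -0.045 and Npm2 at day 10 -0.023. Chosen after seeing the data, leaving out both shallow libraries gave 738 genes and 1 factor at day 6 and 1206 genes between days, with Npm2 0.33, Smarca4 -0.98 and Pou5f1 -0.39 at day 6, and Bnc1 0.51 and Tcl1 -0.39 between days. The causes were not tested.

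With single libraries left out, 0 to 2 factors were called in IVG against IVV, 0 to 1 in IVG-NT against IVV (Tcl1 -0.21 to 0.64), 0 for NT-4 at day 10, 0 to 1 at day 6 (Tcl1, 1.41 without IVG day 6 replicate 3) and 0 to 2 between days. Genes called were 199 to 1065, 235 to 1122, 126 to 254, 1753 to 6817 and 1874 to 5715, respectively. Directions changed in IVG against IVV for Ctcf (-0.34 to 0.0084) and Trim28 (-1.07 to 0.0319), in IVG-NT against IVV for Ctcf (-0.18 to 0.50), at day 10 for Npm2 (-0.65 to 0.56), Smarca4 (-0.66 to 0.14), Hsf1 (-0.28 to 0.50), Pou5f1 (-0.56 to 0.30), Bnc1 (-0.0823 to 0.77) and Trim28 (-0.52 to 0.62), at day 6 for Npm2 (-0.40 to 0.26), Smarca4 (-1.83 to 1.11), Pou5f1 (-0.31 to 0.82) and Trim28 (-0.74 to 1.4988), and between days for Npm2 (-0.3568 to 0.175), Trim28 (-0.90 to 0.32) and Tcl1 (-0.27 to 0.28). Depth limits IVG-NT day 6 most, with Smarca4 on 16 counts in replicate 1.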
